A study of Drosophila melanogaster with 4 samples.

Results

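The broad domains of H3K79me3 are the regions called enriched over at least 20 kb in the authors' series-wide region list. They numbered 239 of the 5331 enriched regions, or 4.48%, and held 7.02 Mb, or 21.5% of the enriched length. The list comes from chromatin immunoprecipitation followed by sequencing (ChIP-seq) of wild-type Drosophila melanogaster larvae of the Oregon-R-modENCODE strain at the last larval instar. A polyclonal rabbit antibody against histone H3 trimethylated at lysine 79 was used for 2 ChIP libraries, and the labels name 2 input libraries of unselected chromatin, whose values were not analysed here. No treatment or mutant was compared. The members were chosen by their width in the series-wide list, so their number, width and length are a description, and so is every score, which comes from the same calls.

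The enzyme that methylates lysine 79 of histone H3 is Dot1, known in flies as grappa, which acts on the surface of the nucleosome and not on the histone tail. The mark is generally found over the bodies of transcribed genes, and a wide region of it can run over a long gene or over neighbouring genes. Genes under the domains were not analysed here, because no gene annotation of the files' genome release (FlyBase release 5) was used. The labels name no tissue within the larvae and do not give their sex, and a higher share of marked cells cannot be told apart from a higher level of the mark per cell.

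The libraries enter the results through region lists only. Replicate 1 listed 5114 enriched regions over 29.5 Mb and replicate 2 listed 4689 over 28.5 Mb, against 5331 regions over 32.6 Mb in the series-wide list. Sequencing depth cannot be read from such lists. Whether the replicates are separate batches of larvae is not stated in the labels, so differences between them may be technical. The series-wide list and the replicate lists share their libraries, so how well a domain is found again in a replicate is not an independent check. No test was made on any of the values below.

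Domain widths ran from 20.0 to 105 kb, with a median of 26.3 kb and quartiles of 22.6 and 31.7 kb. Many members lay near the threshold: 105 were under 25 kb, 55 were from 25 to under 30 kb, 50 from 30 to under 40 kb, 16 from 40 to under 50 kb and 13 were 50 kb or wider. The threshold cut through a continuous range of widths. There were 47 regions from 20 to under 22 kb, 70 from 18 to under 20 kb and 106 from 16 to under 18 kb. The 3 members just inside it were 20013 bp (3L from 5603232 to 5623244, score 0.814), 20105 bp (3L from 8759054 to 8779158, score 0.965) and 20117 bp wide (3R from 27136788 to 27156904, score 0.781). The 3 regions just outside it all lay on 3L. They were 19997 bp (from 15548922 to 15568918, score 1.55), 19957 bp (from 8665790 to 8685746, score 1.37) and 19931 bp wide (from 3068834 to 3088764, score 1.62).

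**Figure D1:**
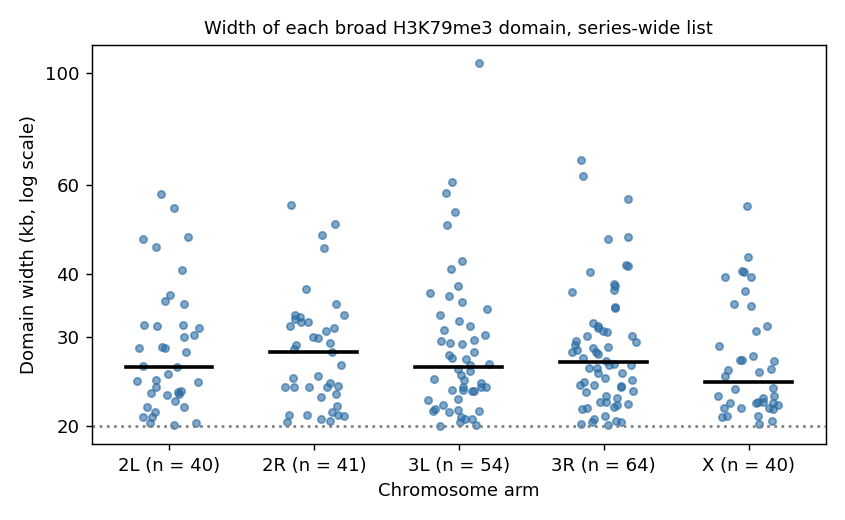
Width in kb (log scale) of each of the 239 broad domains by chromosome arm, 1 point a domain, with a bar at the median of each arm and a dotted line at 20 kb. Medians lie between 24.5 kb on the X and 28.0 kb on 2R, and the single domain above 100 kb is on 3L.

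All 239 domains lay on the 5 large chromosome arms, where they took up 5.89% of the sequence at a density of 2.01 per Mb. Arm 3R held 64 domains, 3L held 54, 2R held 41, and 2L and the X held 40 each. Density was 2.29 per Mb on 3R, 2.20 on 3L, 1.94 on 2R, 1.78 on the X and 1.74 on 2L. The share of the arm inside domains was 6.79% on 3R and 6.70% on 3L, and from 4.94% on the X to 5.63% on 2R on the other 3 arms. Read against all enriched length on the arm, domains made up 25.03% on 3L, 24.3% on 3R, 20.8% on 2L, 18.8% on 2R and 18.5% on the X. The other sequences held 93 enriched regions, none of them broad. The widest there was 6977 bp on chromosome 4, the small dot chromosome, 3417 bp on the unplaced sequence U and 3149 bp on the heterochromatic scaffolds.

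Domains were scarce next to the centromeres. The release 5 sequences of 2L, 3L and X run towards the centromere and those of 2R and 3R run away from it, which is textbook orientation. No domain had its midpoint within 1 Mb of the centromere-proximal end of an arm, a stretch that held 103 enriched regions over the 5 arms. Within 2 Mb there were 2 domains, or 0.837% of them, while 4.89% of all enriched regions on these arms and 8.40% of their sequence lay there. The most proximal domain began or ended 2088 kb from the arm's proximal end on 2L, 1988 kb on 2R, 2142 kb on 3L, 1125 kb on 3R and 2037 kb on the X. At the distal, telomeric ends, 27 domains, or 11.3%, had their midpoint within 2 Mb, beside 9.41% of all enriched regions. The most distal domain lay 138 kb from the end on 3R, 155 kb on 2L, 236 kb on 2R, 506 kb on the X and 517 kb on 3L.

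Along the arms the number of domains per Mb varied, and whether it varied more than a random scatter would was not tested. Of 122 blocks of 1 Mb, counting the shorter last block of each arm, 21 held no domain midpoint, 31 held 1, 32 held 2 and 19 held 3. The 19 of 122 blocks with 4 or more held 87 domains, or 36.4% of the class. These blocks were picked by that count, so a high share is built in. The fullest block was 3R from 5000001 to 6000000, which held 9 domains over 23.6% of its length, and enriched regions of any width covered 52.7% of it. The 9 domains of that block were not alike in score, which ran from 0.928 (from 5776882 to 5799216) to 2.07 (from 5160608 to 5185048). The next block was 3L from 17000001 to 18000000, with 6 domains over 18.4% of its length. Another 4 blocks held 5 domains each, and among these X from 1000001 to 2000000 had 18.1% of its length inside domains.

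Between neighbouring domains on the same arm the distance was 307 kb at the median of 234 distances, with quartiles of 98.5 and 620.4 kb. Medians by arm were 208 kb on 3L, 286 kb on 3R, 350.4 kb on 2L, 352 kb on the X and 382 kb on 2R. Of the distances, 43 were under 50 kb, 21 under 10 kb, 11 under 5 kb and 5 under 500 bp, while 24 were at least 1 Mb. Another domain lay within 50 kb of 77 domains, or 32.2%.

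**Figure D2:**
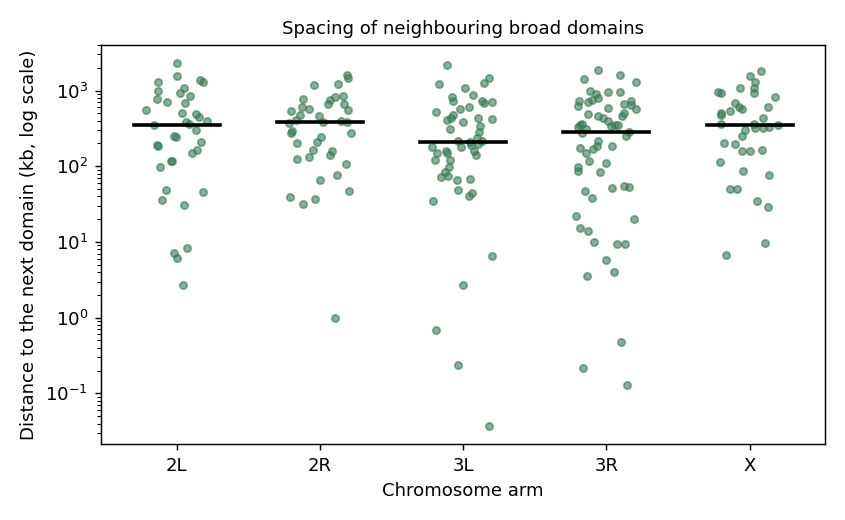
Distance in kb (log scale) from each broad domain to the next on the same arm, 1 point a distance, with a bar at the median of each arm. Distances run from 0.037 kb to 2326 kb, and both extremes lie on the left arms, 3L and 2L.

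The domains under 5 kb apart formed 9 groups of 20 domains, 7 of them pairs and 2 of them runs of 3. The closest pair lay on 3L, where a domain from 21015676 to 21042860 and one from 21042898 to 21067566 were 37 bp apart, with scores of 1.53 and 1.28. Another domain, from 21070240 to 21095038, followed 2673 bp farther on, and the run spanned 79.4 kb. On 3R the domain from 14873984 to 14901746 (score 0.863) lay 129 bp before the one from 14901876 to 14943546 (score 1.44). Also on 3R, domains from 2215186 to 2243530 and from 2243748 to 2271052 were 217 bp apart, and their scores of 2.19 and 2.29 were both among the 10 highest of the class. The other run of 3 was on 3R from 10494508 to 10617186, over 122.7 kb, of which 96.3% was inside domains. The widest group was a pair on 3L spanning 129 kb, from 17913420 to 18042520, which joins the widest domain to one of 23.5 kb with a score of 0.845. In neither replicate did a single region meet 2 domains.

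At the other extreme, the most isolated domain was on 2L from 20900076 to 20923392 (23.3 kb, score 1.30), and the nearest other one was 2326 kb away. The next was on 2R from 1988368 to 2038702, 1587 kb away, and it held the highest score of the class, 2.48. It was followed by a domain on 2L from 11026896 to 11067674, 40.8 kb wide, 1315 kb away. Long distances between domains were not free of the mark. The 2.33 Mb before the isolated domain on 2L held 120 narrower enriched regions over 26.5% of the stretch, the widest of 19.0 kb. On 3L, 2.20 Mb between 5775096 and 7980040 held 87 regions over 22.8% of it.

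Close surroundings of the domains were also marked. In the 20 kb on either side, other enriched regions covered a median of 43.1% around broad domains, against 39.9% around the 662 regions of 10 to under 20 kb and 37.6% around all 4999 narrower regions of the large arms. The range among domains ran from 0 to 96.1%, with quartiles of 30.3 and 55.8%. The nearest enriched region of any width was a median of 905 bp from a broad domain, against 971 bp for regions of 10 to under 20 kb and 1079 bp for all narrower ones. It was closer than 500 bp for 86 domains, or 35.98%. These distances depend on where the authors' calls end, and whether neighbouring calls were joined is not stated in the labels.

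Scores were high in the class but overlapped those of narrower regions. The score is the authors' own value for a region, deposited without a unit. Among domains it ran from 0.772 to 2.48, with a median of 1.53 and quartiles of 1.31 and 1.76. Every domain scored above the median of the series-wide list, 0.719, and 187 of them, or 78.2%, above its upper quartile of 1.26. Of the 662 regions of 10 to under 20 kb, 635 lay above the list median and 59.5% above the upper quartile, with a median score of 1.38. The top 10% of scores in the list, above 1.65, took in 87 domains, or 36.4% of the class, and 446 regions under 20 kb.

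Width and score rose together over the whole list (Spearman's rho 0.802 over 5331 regions) and among all regions under 20 kb (rho 0.794, n = 5092). They were only loosely related among the domains (rho 0.131, n = 239) and among the regions of 10 to under 20 kb (rho 0.0437, n = 662). Both of these classes were cut by width, and a limited range of widths can by itself lower a correlation. These correlations are across regions called from the same libraries and carry no test. The median score was 1.48 for 105 domains under 25 kb, 1.61 for 55 from 25 to under 30 kb, 1.54 for 50 from 30 to under 40 kb and 1.565 for 29 of 40 kb or more. Arm medians lay between 1.48 on 3R and 1.59 on the X.

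**Figure D3:**
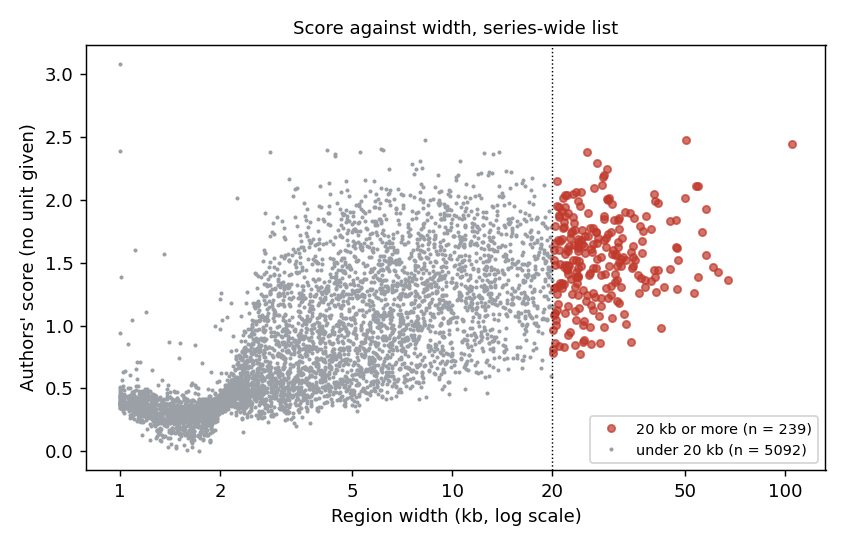
Authors' score (no unit given) against width in kb (log scale) for the 239 broad domains and the 5092 narrower regions of the series-wide list, 1 point a region, with a dotted line at 20 kb. The lower edge of the scores climbs with width, and no domain lies below 0.772.

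Extremes of the class show both combinations. Of the 10 widest domains, 2 were also among the 10 highest scores of the class: the widest, on 3L from 17937562 to 18042520 (score 2.44), and the ninth widest, on the X from 1468346 to 1523032 (54.7 kb, score 2.11). The second widest, on 3R from 9794858 to 9862084 (67.2 kb), scored 1.37 and ranked 1081 in the series-wide list. Among the 10 highest scores, 7 belonged to domains of 20.7 to 29.1 kb, among them 3R from 20048758 to 20074200 (2.39), 3L from 16132990 to 16162070 (2.25) and 3R from 27417946 to 27446474 (2.20). The lowest score, 0.772, was on 3R from 6375224 to 6399346, followed by 0.781 on 3R from 27136788 to 27156904 and 0.814 on 3L from 5603232 to 5623244. Those were followed by 0.831 on 3L from 7980040 to 8001718 and 0.839 on the X from 2419836 to 2440806. Around 2 of these 5 low-scoring domains, the second and the fifth, no other enriched region lay within 20 kb, while around the lowest 92.5% of the 20 kb flanks was covered.

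Each of the 239 domains met at least 1 region in both replicates, and so did each of the 662 regions of 10 to under 20 kb. The coverage values that follow are for the domains only. Replicate regions covered a domain to a median of 98.3% in replicate 1 and 98.2% in replicate 2, and to at least 95% in 190 domains of replicate 1 and 179 of replicate 2. The lowest was 72.8% in replicate 1 (X from 8410934 to 8433868, covered to 89.6% in replicate 2) and 65.7% in replicate 2 (X from 2419836 to 2440806, covered to 86.2% in replicate 1). Coverage differed little between the replicates, with a median difference of 1.24 percentage points, and the difference was under 5 points in 203 domains. Replicate calls mostly stopped short of the domain's edges. The first replicate base lay inside the domain's start in 203 domains of each replicate, by a median over all domains of 66 bp in replicate 1 and 94 bp in replicate 2.

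A domain of the series-wide list was often several regions in a replicate. In replicate 1, 137 domains, or 57.3% (95% Wilson interval 51.0 to 63.4%), were met by a single region, 55 by 2, 33 by 3, 11 by 4 and 3 by 5. In replicate 2, 146 domains, or 61.1% (54.8 to 67.0%), were met by a single region, 67 by 2, 18 by 3, 7 by 4 and 1 by 5. The intervals treat domains as independent draws, although every member of the class was counted, and they do not cover variation between libraries. The mean of the replicates was 59.2 ± 2.66% (SD, n = 2). It depended on short gaps: with replicate regions under 500 bp apart joined, 84.1% of domains were 1 piece in replicate 1 and 83.3% in replicate 2. Regions of 10 to under 20 kb were called as 1 piece more often, 72.2% in replicate 1 and 75.4% in replicate 2. Those regions are shorter, with a median width of 13.3 kb against 26.3 kb, and a longer region has more room for a gap. The shares are not adjusted for length, so they do not show that domains break more often per kb. Among the domains, width and the number of pieces were only loosely related (over 239 domains, a rho of 0.180 for replicate 1 and 0.0901 for replicate 2, with no test). The share as 1 piece was 64.8% in both replicates under 25 kb. From 25 to under 30 kb it was 61.8% in replicate 1 and 65.5% in replicate 2, and from 30 to under 40 kb 48.0% and 56.0%. At 40 kb or more it was 37.9% in replicate 1 and 48.3% in replicate 2.

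The replicates often gave the same picture of a domain, though not always. Both called 110 domains as 1 piece, and both called 66 in several pieces. Another 27 were 1 piece in replicate 1 alone and 36 in replicate 2 alone. The number of pieces was equal in 139 domains, higher in replicate 1 in 62 and higher in replicate 2 in 38, and it differed by at most 1 in 218. Domains called as 1 piece in both had a median series-wide score of 1.63 and a median width of 24.8 kb. Those in several pieces in both had a median score of 1.33 and a median width of 27.3 kb. The domains were also ranked by score and cut into 4 near-equal groups. Of the lowest, 60 domains from 0.772 to 1.31, 12 were 1 piece in both and 31 were in several pieces in both. Of the highest, 60 domains from 1.77 to 2.48, those counts were 35 and 3.

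**Figure D4:**
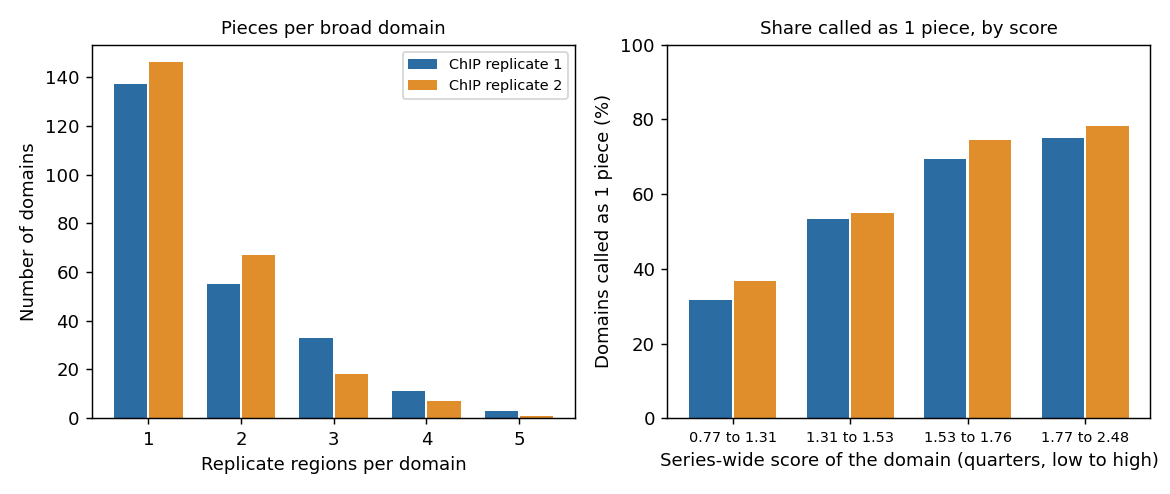
Left, number of broad domains met by 1 to 5 regions in ChIP replicate 1 and ChIP replicate 2. Right, percentage of domains called as 1 piece in each replicate, in 4 groups of the series-wide score from low to high, which lies at 31.7 and 36.7% in the lowest group and at 75 and 78.3% in the highest.

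In both replicates a smaller share of domains was called as 1 piece on the X than on the autosomal arms. On the X, 15 of 40 domains (37.5%) were 1 piece in replicate 1 and 19 (47.5%) in replicate 2, against 122 of 199 (61.3%) and 127 (63.8%) on the autosomal arms. Both replicates called 9 X domains (22.5%) and 101 autosomal domains (50.8%) as 1 piece. The X had the lowest share of the 5 arms in each replicate, and 2R the highest, 73.2% in replicate 1 and 75.6% in replicate 2. Domains on the X had a median score of 1.59, against 1.52 for the autosomal ones, and a median width of 24.5 kb, against 26.5 kb. Among domains scoring above the class median, 6 of 21 on the X (28.6%) and 66 of 98 on the autosomal arms (67.3%) were 1 piece in both. At or below that median the counts were 3 of 19 (15.8%) on the X and 35 of 101 (34.7%) on the autosomal arms. In that lower group the replicates differed: 15.8% of X domains and 47.5% of autosomal ones were 1 piece in replicate 1, against 42.1 and 46.5% in replicate 2. In regions of 10 to under 20 kb the shares lay closer, 69.1 and 70.7% on the X in replicates 1 and 2, against 72.9 and 76.4% on the autosomal arms. Whether the difference exceeds the variation along chromosomes was not tested.

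Breaks within domains were short. Replicate 1 had 166 gaps between regions of the same domain and replicate 2 had 128, with a median of 255 bp in replicate 1 and 341 bp in replicate 2. Gaps under 1000 bp were 149 of 166 in replicate 1 and 104 of 128 in replicate 2, and all gaps together took 1.01 and 0.968% of the domain length. The longest were 4395 bp in replicate 1 on the X (from 8425137 to 8429531, bridged in replicate 2) and 2974 bp in replicate 2 on 2R (from 6767854 to 6770827, bridged in replicate 1). Of the replicate 1 gaps, 112 (67.5%) lay wholly inside a single region of replicate 2 and 43 (25.9%) met a replicate 2 gap. Of the replicate 2 gaps, 78 (60.9%) lay inside a single region of replicate 1 and 44 (34.4%) met a gap there.

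Split domains usually kept 1 large part. The widest piece held a median of 68.3% of the domain in 102 split domains of replicate 1 and 70.1% in 93 of replicate 2, and it also carried the highest score of its domain in 82 domains of each replicate. Width and score rose together over the whole series-wide list too (rho 0.802), and no baseline is given for that count. Replicate 1 had 61 pieces under 3 kb, of which 46 were the first or last of their domain, and replicate 2 had 47, of which 34 were. These shares of 75.4% in replicate 1 and 72.3% in replicate 2 were no higher than those of all pieces in split domains, 76.1% in replicate 1 and 84.2% in replicate 2. A piece of at least 20 kb stood in both replicates in 160 domains, in replicate 1 alone in 19, in replicate 2 alone in 17 and in neither in 43. The 43 domains with no such piece in either replicate had a median width of 22.7 kb and a median score of 1.19. The 160 with a wide piece in both had medians of 28.6 kb and 1.63. Pieces were measured inside the domain only, so a domain just over 20 kb had little room for one of 20 kb. The difference in width is therefore partly built in. The widest of the 43 was on 3R from 27732900 to 27767234 (34.3 kb, score 0.869), which was 4 pieces in replicate 1 and 5 in replicate 2, the most of any domain in both replicates together.

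Where both replicates broke a domain at the same place, the parts could differ in score. There were 44 such meeting gap pairs in 41 domains. The score stepped by a median of 0.368 across the gap in replicate 1 and 0.460 in replicate 2. The same side was higher in both replicates in 29 of 44, but with only 2 sides some agreement is bound to occur, and it was not tested. In the rest the higher side differed, as on 3L in the domain from 3041724 to 3062368. There the score was 0.648 left of the gap and 0.455 right of it in replicate 1, and 0.504 and 1.47 in replicate 2. The pieces beside a gap need not span the same stretch in both replicates. Here the piece on the right was 1.95 kb wide in replicate 1, followed by another of 5.87 kb that scored 1.76. In replicate 2 it was 7.46 kb wide, so the right end of the domain scored high in both. On the X, the domain from 1468346 to 1523032 was 2 pieces in both. Its left part of 25.8 kb scored 1.46 and its right part of 28.7 kb scored 2.62 in replicate 1, and in replicate 2 parts of 25.9 and 27.8 kb scored 1.31 and 2.34. The largest step in replicate 1 was on 3R in the domain from 7027766 to 7064992, where the score was 1.89 left of the gap and 0.458 right of it, and 1.35 and 0.342 in replicate 2. The left parts were not alike. In replicate 1 it was the widest piece, of 33958 bp. Replicate 2 had 4 pieces, and its widest, of 23779 bp with a score of 1.82, was not the one beside the gap. The second widest domain, on 3R, broke at the same 2 places in both replicates. Its pieces were 10.1, 42.5 and 13.6 kb wide with scores of 1.32, 1.21 and 1.80 in replicate 1, and 10.7, 42.5 and 13.8 kb wide with scores of 1.16, 1.19 and 1.74 in replicate 2.

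Of the 10 widest domains, 3 were 1 piece in replicate 1 and 5 in replicate 2. Both replicates called 2 of them whole, 2L from 12455988 to 12513792 (57.8 kb) and 2R from 6940268 to 6995010 (54.7 kb). The widest domain was 2 pieces in replicate 1, of 7.27 kb (score 0.976) and 96.1 kb (score 2.62), and 1 region of 103.9 kb (score 2.36) in replicate 2. The fourth widest, on 3L from 8819800 to 8880754 (61.0 kb), was 4 pieces in replicate 1 and 3 in replicate 2, and the fifth, on 3L from 516754 to 574800 (58.0 kb), was 1 and 2. The third, on 3R from 10554458 to 10617186 (62.7 kb), was 3 and 2 pieces, with widest parts of 50.9 kb in replicate 1 and 57.3 kb in replicate 2. Among the 10 highest scores, by contrast, 7 were 1 piece in both replicates, including 2R from 1988368 to 2038702 (50.3 kb), whose single region covered 99.8% of it in replicate 1 and 99.9% in replicate 2.

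**Figure D5:**
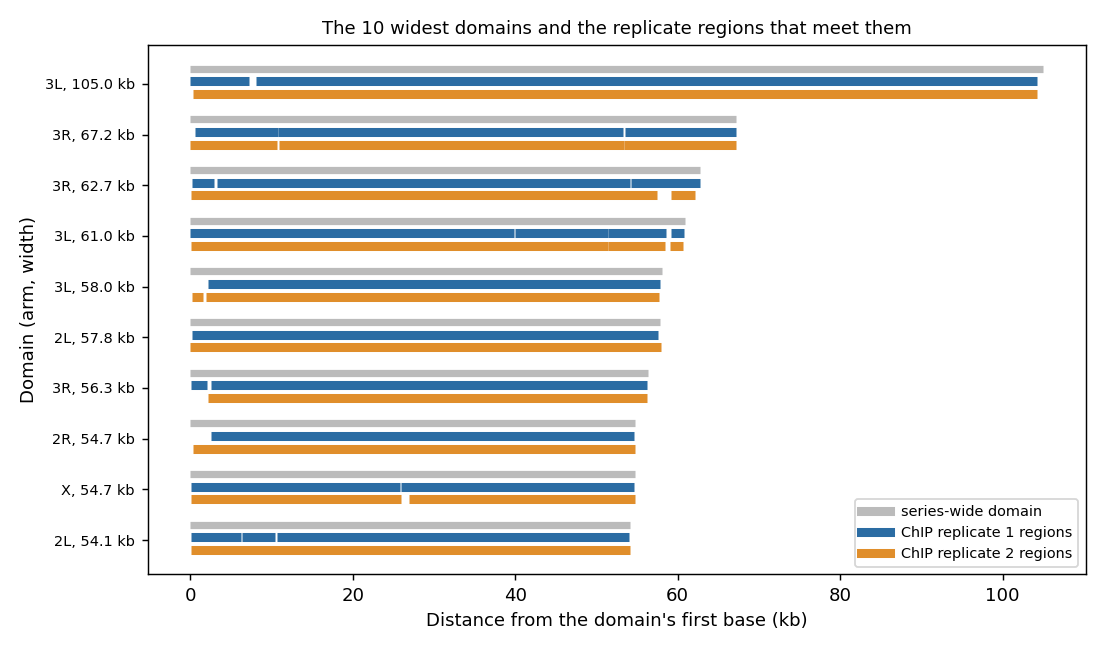
The 10 widest domains, from top to bottom by width, drawn from the domain's first base (distance in kb), with the series-wide domain in grey and the regions of ChIP replicate 1 in blue and ChIP replicate 2 in orange. Gaps of about 100 bp or less appear as hairlines, and the second widest domain shows breaks at the same 2 places in both replicates.

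The rank order of the domains by score was alike in the replicates. The score of the widest piece in replicate 1 and that in replicate 2 had a Spearman's rho of 0.936 over the 239 domains, which share position in the genome and carry no test. Its median was 1.66 in replicate 1 and 1.53 in replicate 2, above the upper quartile of each list, 1.45 in replicate 1 and 1.31 in replicate 2. Domains called as 1 piece had a higher median than those in several, 1.72 against 1.57 in replicate 1 and 1.58 against 1.44 in replicate 2. These medians compare unlike regions. The widest piece of a split domain held a median of 68.3% of it in replicate 1 and 70.1% in replicate 2.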

How the data were processed

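The authors deposited a region list per ChIP replicate and another for the series as a whole, and gave each region a score with no unit. Per the file headers, coordinates are 1-based and refer to FlyBase release 5. The submitters' processing notes name Bowtie 0.12.7. Not given in the sources used here are the caller, the threshold, the use of input and how replicates were combined. Entries named depletion were set aside (7 in the series-wide list, 2 in replicate 1, 0 in replicate 2), and none met a broad domain.

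Width was the last base minus the first base plus 1, and a domain was a region of at least 20000 bp. A replicate region counted as a piece when it overlapped a domain by at least 1 bp, and a gap was the sequence between consecutive pieces. Spacing ran from the last base of a domain to the first base of the next. Scores were ranked within a list. Where scores of different lists stand side by side they are values only, since the lists may differ in scale. Wilson intervals are at 95%. The depth of each library is unknown, so no interval or floor that needs it is given.

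The members and comparisons were chosen with earlier results of these data known. Regions named are the 10 widest, the 10 highest-scoring and 5 lowest-scoring domains, the 3 on either side of the threshold, the 5 in most pieces, the 5 least covered, the 3 closest pairs and the 3 most isolated, in part given by counts. The groups under 5 kb apart, dense blocks, longest gaps and steps in score were chosen after their values were seen. No gene was assigned, because the gene names available are placed on release 6, and no coordinates were moved between releases. Alternatives were other width thresholds, joining of close regions, another piece overlap, the top 50% by score and each replicate alone. Overlap code was tested on simulated data, where 20 of 20 pairs of lists gave the base-by-base answer. Scripts ran in Python 3.11.15 with pandas 2.3.3 and numpy 2.4.6, with scipy 1.17.1 for intervals and correlations and matplotlib 3.10.9 for plots.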

Additional observations from a re-analysis of the deposited data

How the results depend on the processing

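The number of domains followed the width threshold, with 462 at 15 kb or more and 79 at 30 kb or more. It was 314 after regions under 500 bp apart were joined, and 179 to 180 in a single replicate list. The top 50% of the list by score also held 239, as it had to, since every domain scored above the list median. The share called as 1 piece, 59.2% as the mean of the replicates, was 83.7% after replicate regions under 500 bp apart were joined and 92.1% at 1000 bp, since most gaps were short. It was 62.8% for regions of 15 kb or more, 48.7% for 30 kb or more, 81.0% with the top 50% of each replicate list, which drops low-scoring pieces, and 59.4% with a piece overlap of 500 bp. Alone, the replicates gave 57.3 to 61.1%. Median spacing was 132 kb at 15 kb or more, 730.4 kb at 30 kb or more, and 377 to 383 kb in a single replicate list. The median score was 1.47 at 15 kb and 1.55 at 30 kb, and 1.58 to 1.72 in a single replicate list, where the scale may differ. No paired analysis was possible because every region list used here belongs to the ChIP group, and no result comes from a test between groups. Depth and mappability are not known from region lists and limit every count.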

Other observations

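Some replicate regions did not respect the limits of the series-wide domains. They began before the domain's start in 33 domains of replicate 1 and 34 of replicate 2. They ended past its end in 20 domains of replicate 1 and 33 of replicate 2. On 2R, replicate 2 called 1 region of 41.7 kb from 15320073 to 15361783, which ran 18.9 kb past the 20.9 kb domain from 15321988 to 15342902 and met 4 regions of the series-wide list. Its score within the replicate 2 list was 1.63. On 2L, replicate 2 also called a region of 22.7 kb from 2214904 to 2237643 (score 1.65) outside every domain, where the series-wide list has 2 narrower regions of 19.0 and 6.48 kb with scores of 1.52 and 2.08 in that list. Of the regions of at least 20 kb, 180 of 180 in replicate 1 and 178 of 179 in replicate 2 met a broad domain.

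The lists were not made on the same coordinate grid. All 5331 regions of the series-wide list start and end on even base numbers, against 50.7% of starts in replicate 1 and 48.9% in replicate 2. The series-wide list also reached down to widths of 1001 bp, against 1301 bp in both replicates. Some domains were split in a replicate by almost nothing: the shortest gap was 1 bp in replicate 1, and in replicate 2 there were 2 places where consecutive regions touched.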
